A study of Mus musculus with 12 samples.

Results

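The 6 immunoglobulin-like receptor genes described here were measured in natural killer (NK) cells with and without the microRNA miR-142: 4 Fc gamma receptor genes (Fcgr2b, Fcgr3, Fcgr4 and Fcgr1) and 2 genes for other inhibitory receptors (Lair1 and Cd300a). They were taken by name from 19938 genes that had a probe set with 1 gene symbol, and where a gene has several probe sets the one kept is chosen by the highest mean signal. All 6 of 6 were found, and each had 1 probe set, so no choice between probe sets arose. The set was proposed with earlier results of these arrays known, so the p-values given here describe the fit over all genes and are not independent evidence for these 6.

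The arrays came from C57BL6 mice aged 7 to 10 weeks, matched for age and sex, that were wild type or knockout for miR-142. CD3-negative, NK1.1-positive cells had been sorted from the spleen or the bone marrow, which gave 4 groups, a wild type and a knockout group in each tissue, of 3 arrays labelled as biological replicates. The labels do not say whether 1 mouse or a pool stood behind each array, nor how the knockout allele was made, and no treatment is given. Values are log2 signals, so a difference of 1 is a doubling of signal. The study asked which genes differ between the genotypes in each tissue.

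Fc gamma receptors bind the constant part of immunoglobulin G and so let a cell read antibody on a target. The products of Fcgr1, Fcgr3 and Fcgr4 are activating receptors that signal through a shared gamma chain (Fcer1g) with an activation motif (ITAM), which recruits the kinases Syk and Zap70. The product of Fcgr2b, the sole inhibitory member of the family, carries an inhibitory motif (ITIM) of its own and recruits the lipid phosphatase SHIP-1 (Inpp5d). In mouse NK cells FcγRIII, from Fcgr3, is the receptor of antibody-dependent killing, whereas FcγRI and FcγRIV are known mainly from myeloid cells. LAIR-1 is an inhibitory receptor for collagens, and CD300a one for phospholipids exposed on dying cells, and both act through the phosphatases SHP-1 (Ptpn6) and SHP-2 (Ptpn11).

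The microRNA absent from the knockout gives a pair of mature strands, shown because their loss defines the genotypes (RefSeq, GRCm38.p6, plus strand, chr11:87756867-87756887 and chr11:87756903-87756925). Capitals mark the seed, bases 2 to 8, and the strands have different seeds.
mmu-miR-142a-5p: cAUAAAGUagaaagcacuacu
mmu-miR-142a-3p: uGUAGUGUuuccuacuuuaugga
No target site was searched for in the receptor transcripts.

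The 250 bases before the annotated start are shown for Fcgr2b and Lair1, which were both lower in knockout bone marrow, and for Fcgr3, which did not pass in any comparison (RefSeq, GRCm38.p6, minus strand, chr1:170976072-170976321, chr7:4063205-4063454 and chr1:171059404-171059653). Capitals mark GAGGAA, the core of the word bound by the myeloid and lymphoid factor PU.1, on either strand.
Fcgr2b: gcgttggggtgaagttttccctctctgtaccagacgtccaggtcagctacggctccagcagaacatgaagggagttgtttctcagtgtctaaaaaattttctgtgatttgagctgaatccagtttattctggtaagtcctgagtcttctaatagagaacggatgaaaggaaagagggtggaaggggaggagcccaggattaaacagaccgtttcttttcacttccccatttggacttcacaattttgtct
Lair1: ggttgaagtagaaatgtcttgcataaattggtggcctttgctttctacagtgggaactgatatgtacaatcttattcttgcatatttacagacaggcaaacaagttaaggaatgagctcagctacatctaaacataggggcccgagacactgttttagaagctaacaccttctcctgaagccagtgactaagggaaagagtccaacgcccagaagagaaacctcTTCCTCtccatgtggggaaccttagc
Fcgr3: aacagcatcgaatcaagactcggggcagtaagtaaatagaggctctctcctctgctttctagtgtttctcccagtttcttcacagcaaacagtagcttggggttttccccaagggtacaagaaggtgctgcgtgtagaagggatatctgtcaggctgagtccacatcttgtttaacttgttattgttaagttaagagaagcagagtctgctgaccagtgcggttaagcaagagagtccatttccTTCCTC
The first of 2 listed starts is shown for Fcgr3. The listed starts of Lair1, Fcgr3 and Cd300a lie inside the RefSeq bounds of these genes, whereas those of Fcgr2b, Fcgr4 and Fcgr1 are at the outer end. The match in Lair1 began 26 bases before the start and that in Fcgr3 6 bases before it, and Fcgr2b held none. Over all 6 genes 5 had a match, in windows of which 23.3% of 32851 held one (27025 genes). The words TGTGGT (RUNX factors, 14.0% of windows), TGANTCA (AP-1, 6.7%) and GGTGTG (T-box factors, 16.3%), searched on both strands and sharing no bases with GAGGAA in these windows, were in 1, 0 and 0 of the 6. The match to TGTGGT was in Fcgr4. A match describes the letters and is not a measured binding site.

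The knockout label was matched by the Mir142 signal, which lay between 6.77 and 8.25 in the wild type arrays and between 4.05 and 4.70 in the knockout arrays. Array medians were 5.75 to 5.87. Within a group, correlations between arrays over the 11963 genes tested were 0.968 to 0.986. The array numbers in the labels form 2 runs of 7 and 5 arrays that cut across 3 of the groups, all knockout bone marrow arrays being in the first, and the run was a covariate of the fit. Array data carry no read depth, and the number of arrays limits the precision.

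Genes were tested where their mean over the 12 arrays was above the 40th percentile, 5.49, and 4 of the 6 receptors passed: Fcgr2b (mean 6.77), Fcgr3 (8.97), Lair1 (7.83) and Cd300a (6.12). Just inside that limit stood Cd300a, 0.63 above it, and just outside stood Fcgr1, 0.11 below it with a mean of 5.38. Fcgr4 was farther below it, with a mean of 4.09. Signals of different probe sets are not comparable as amounts, so levels are compared only within a gene.

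**Figure D1:**
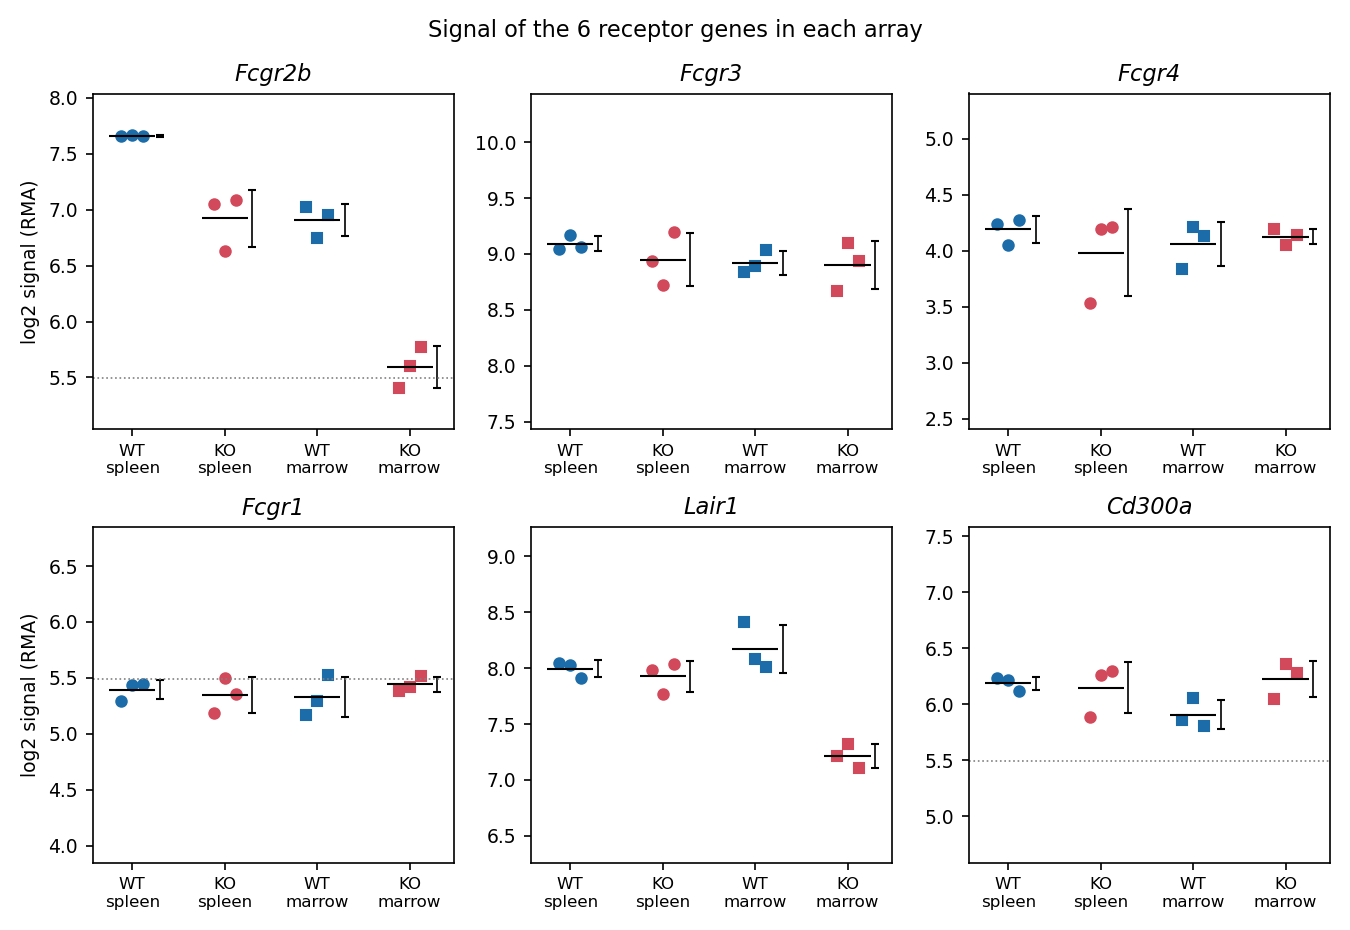
Log2 signal (RMA) of the 6 receptor genes in each of 12 arrays, with blue for wild type, red for knockout, circles for spleen and squares for bone marrow; the lines are group means, the bars to their right are ± 1 SD (n = 3), and the dotted line, where it falls inside a panel, is the test limit of 5.49. Each panel spans 3 log2 units around its own values; Fcgr2b falls from 7.66 in wild type spleen to 5.59 in knockout bone marrow, and Lair1 is low in the 3 knockout bone marrow arrays alone.

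Fcgr2b, the inhibitory Fc gamma receptor, was lower in knockout NK cells of both tissues. The wild type spleen arrays read 7.66, 7.67 and 7.65 (log2 signal), against 7.05, 6.63 and 7.09 in the knockout spleen arrays. The 3 wild type arrays lay close together and all 3 knockout arrays lay below them. The difference was -0.69 ± 0.14 (standard error; 95% interval -0.99 to -0.39), a signal 1.61-fold lower, with an adjusted p = 0.00822 in limma after Benjamini-Hochberg adjustment. Of the 4 tested receptors 1 passed in spleen, where 9.11% of the 11963 genes tested passed, 3.63% lower and 5.48% higher. For 28.0% of all genes tested there was no overlap between genotypes in spleen. Because the cells were measured in bulk, a smaller share of cells with the transcript and less transcript per cell cannot be told apart here.

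In bone marrow Fcgr2b stood at 7.02, 6.74 and 6.95 in the wild type and at 5.40, 5.602 and 5.77 in the knockout arrays. The genotypes were again apart. The difference was -1.41 ± 0.15 (95% interval -1.74 to -1.07), or 2.65-fold lower, with an adjusted p = 1.65e-04 (limma). It ranked 55th from the lowest of 11963 differences. The knockout bone marrow values lie around the test limit of 5.49, in the low range where log2 differences on arrays are compressed.

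Bone marrow cells also had less Fcgr2b than spleen cells of the same genotype. In wild type the tissue difference was -0.71 ± 0.14 (adjusted p = 0.0148, limma), and 1 of the 4 tested receptors passed, where 5.37% of genes passed (4.34% higher and 1.04% lower in bone marrow) and the arrays of 31.6% did not overlap. In knockout it was -1.43 ± 0.15 (adjusted p = 0.0019, limma), 2.69-fold lower in bone marrow. The order of levels was therefore wild type spleen (7.66 ± 0.0086, SD, n = 3), then knockout spleen (6.92 ± 0.25) with wild type bone marrow (6.91 ± 0.14), then knockout bone marrow (5.59 ± 0.18). The middle groups overlapped and did not differ beyond their spread. These comparisons share arrays, so the genotype and tissue differences are not independent of each other.

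The genotype difference in Fcgr2b was larger in bone marrow by 0.72 on the log2 scale, but the test of that difference did not pass (-0.72 ± 0.22, 95% interval -1.20 to -0.24, adjusted p = 0.356 in limma). Within the first run of arrays the genotype difference was -0.58 in spleen and -1.43 in bone marrow, and within the second it was -0.81 in spleen, with no knockout bone marrow array there. The spleen call was lost without wild type spleen array 3 (-0.60, adjusted p = 0.0909), and the wild type tissue call without that array (-0.62, adjusted p = 0.112) or wild type bone marrow array 1 (-0.73, adjusted p = 0.105). In knockout the tissue call was lost without knockout spleen array 3 (-1.34, adjusted p = 0.0628), all by limma.

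Lair1, the collagen receptor gene, was lower in the knockout in bone marrow and showed no such difference in spleen. The wild type bone marrow arrays read 8.41, 8.08 and 8.01 and the knockout bone marrow arrays 7.22, 7.32 and 7.11. The groups did not overlap, and the first wild type array was the highest of the 12. The difference was -1.10 ± 0.12 (95% interval -1.35 to -0.84), a signal 2.14-fold lower, with an adjusted p = 1.47e-04 (limma). With Fcgr2b, 2 of the 4 tested receptors passed in bone marrow, where 8.65% of genes passed (4.73% lower and 3.92% higher) and 34.2% did not overlap between genotypes; the split over all genes was 469 higher and 566 lower, and it turned to 539 and 379 after quantile normalization was applied again.

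In spleen Lair1 read 8.05, 8.03 and 7.91 in wild type and 7.98, 7.77 and 8.03 in knockout. The arrays of the genotypes interleaved, with a difference of 0.0046 ± 0.11 and a 95% interval from -0.23 to 0.24 (adjusted p = 0.991, limma). A change in spleen as large as the one in bone marrow lies outside that interval. The bone marrow difference minus the spleen difference was -1.10 ± 0.17 (95% interval -1.47 to -0.73). It had the 5th smallest p of all genes in that test (unadjusted p = 3.13e-05), yet its adjusted p = 0.0748 missed the threshold in limma. None of the 4 tested receptors passed there. The test called 0.00836% of all genes, the single gene Slamf6, a receptor of the SLAM family, with 1092 genes at an unadjusted p under 0.05. Slamf6 is named here after its values were seen.

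Between tissues Lair1 differed in the knockout cells. Knockout bone marrow was lower than knockout spleen by -0.86 ± 0.12 on the log2 scale (95% interval -1.11 to -0.60, adjusted p = 0.0086, limma), and the arrays of the tissues were apart. In wild type the tissue difference was 0.24 ± 0.11, higher in bone marrow, and did not pass (adjusted p = 0.196, limma). The knockout tissue comparison called 0.318% of genes, 38 in all (0.226% lower and 0.0920% higher in bone marrow), and the 2 receptors Fcgr2b and Lair1 were among the 27 lower ones. For 16.3% of genes the arrays of the tissues did not overlap. The group levels of Lair1 ran from wild type bone marrow (8.17 ± 0.21, SD, n = 3) over wild type spleen (7.995 ± 0.07) and knockout spleen (7.93 ± 0.14) to knockout bone marrow (7.22 ± 0.10), and only the last lay apart from its neighbour. Within the first run the genotype difference in bone marrow was -1.19, with 1 wild type array. The run itself had a coefficient of -0.22 ± 0.09 for Lair1 (unadjusted p = 0.0306, adjusted p = 0.999, limma). The fitted differences are adjusted for run and so differ from those of the plain group means. Over the alternatives the bone marrow genotype difference of Lair1 was -1.45 to -0.95. The knockout tissue call was lost without knockout spleen array 3 (-0.90, adjusted p = 0.137, limma), the only knockout spleen array of the first run, and when the knockout arrays were fitted alone (-0.71, adjusted p = 0.056).

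**Figure D2:**
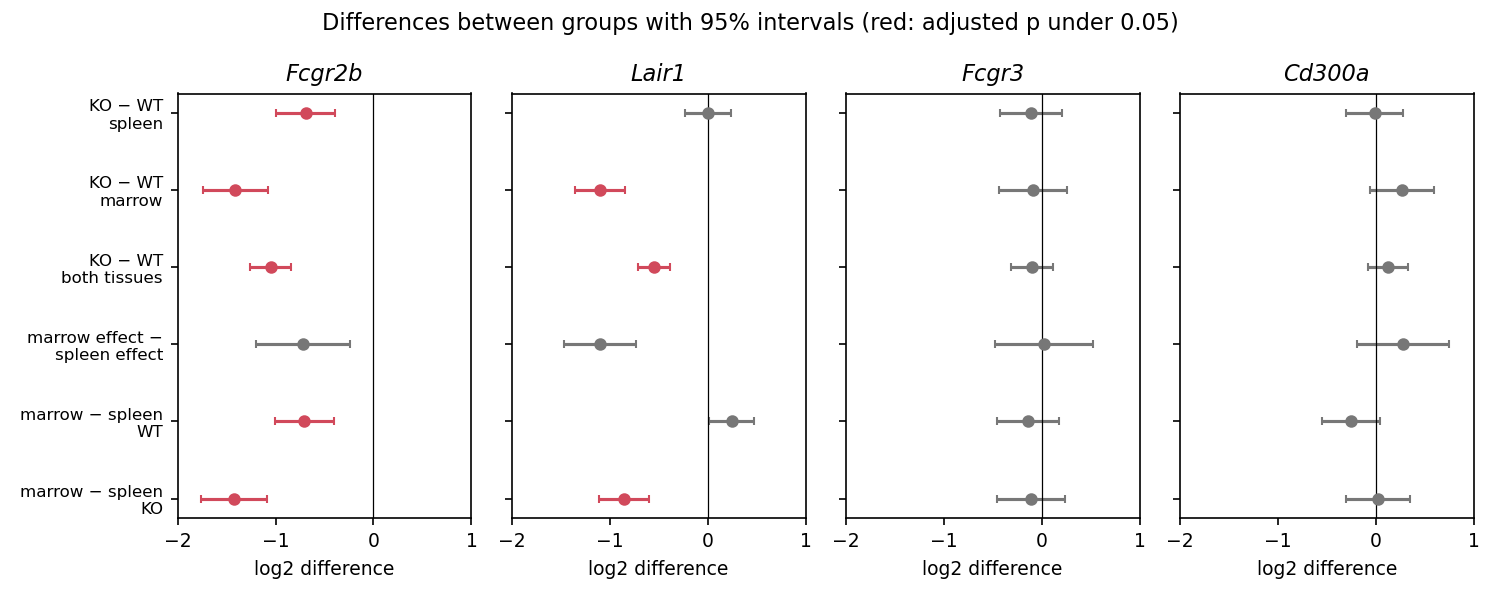
Log2 differences between groups (points) with 95% intervals (bars) for the 4 tested receptors, one row for each of 6 comparisons (KO knockout, WT wild type, marrow bone marrow); red marks an adjusted p under 0.05 in limma. Fcgr2b lies below 0 in every row with 5 of 6 called, Lair1 is called in the bone marrow, pooled and knockout tissue rows, and neither Fcgr3 nor Cd300a is called in any.

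Over both tissues together Fcgr2b was lower by -1.05 ± 0.10 (adjusted p = 1.32e-05) and Lair1 by -0.55 ± 0.07 (adjusted p = 2.74e-04, limma). That is 2 of the 4 tested receptors, where 19.1% of genes passed (10.3% lower and 8.81% higher); over all genes 1054 were higher and 1236 lower, and 1233 and 1013 after quantile normalization was applied again. The pooled value for Lair1 averages a bone marrow difference of -1.10 with a spleen difference near 0. No receptor of the 4 was called higher in the knockout, in spleen, in bone marrow or over both.

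Fcgr3, the activating receptor of NK cells, did not pass in any of the 6 comparisons. Its signal was 9.04, 9.17 and 9.06 in wild type spleen and 8.93, 8.72 and 9.20 in knockout spleen. In bone marrow it was 8.84, 8.89 and 9.04 in wild type and 8.67, 9.10 and 8.94 in knockout. The genotypes overlapped in both tissues, and the 12 arrays spanned 8.67 to 9.20. Between wild type tissues the arrays did not overlap, by a narrow margin, as was so for 31.6% of all genes tested. The genotype difference was -0.11 ± 0.14 in spleen (95% interval -0.42 to 0.20) and -0.08 ± 0.16 in bone marrow (95% interval -0.43 to 0.26; adjusted p = 0.732 and 0.784, limma). These intervals leave out a fall as large as that of Fcgr2b in the same tissue by its fitted value, but not a smaller change.

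Since the receptors pull in opposite directions in a cell, the within-array difference of Fcgr2b minus Fcgr3 was also followed. Its absolute value has no meaning across probe sets, and only its change is read. In spleen it averaged -1.43 ± 0.06 (SD, n = 3) in wild type and -2.03 ± 0.13 in knockout arrays, and in bone marrow -2.02 ± 0.18 and -3.31 ± 0.17. The order is that of Fcgr2b, and the signals of the pair moved unequally between groups. The extracellular parts of these receptors are closely similar in sequence, and the deposited values do not tell how far the probes of one respond to the transcript of the other, so the values of both carry that uncertainty.

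Cd300a, the phospholipid receptor gene, read 6.23, 6.21 and 6.12 in wild type spleen and 5.89, 6.26 and 6.29 in knockout spleen. Its bone marrow values were 5.86, 6.05 and 5.81 in wild type and 6.05, 6.36 and 6.28 in knockout. The genotypes overlapped in spleen, and in bone marrow by a narrow margin. The difference was -0.01 ± 0.13 in spleen and 0.27 ± 0.15 in bone marrow (95% interval -0.06 to 0.59), and neither passed (adjusted p = 0.98 and 0.299, limma). Wild type bone marrow was below wild type spleen by -0.25 ± 0.13, which did not pass either (adjusted p = 0.285, limma). The arrays of these tissues did not overlap, as was so for 31.6% of all genes tested. Its 4 group means lay between 5.91 and 6.23, and neighbours in that order did not differ beyond their spread.

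Fcgr1 and Fcgr4, the receptors known from myeloid cells, were low and flat. Fcgr1 read between 5.17 and 5.52 over the 12 arrays, with group means of 5.39 (wild type) and 5.35 (knockout) in spleen and of 5.33 and 5.44 in bone marrow. Fcgr4 read between 3.54 and 4.28, with group means of 4.19, 3.98, 4.06 and 4.13 in the same order, and its lowest array was knockout spleen 1. Every pair of groups overlapped for both genes. When all 19938 genes were fitted without the limit on low signal, the genotype differences were -0.08 ± 0.12 and 0.18 ± 0.13 for Fcgr1 and -0.22 ± 0.18 and 0.09 ± 0.20 for Fcgr4, in spleen and bone marrow in turn, with adjusted p of 0.518 or higher (limma). A low signal on these arrays does not show that a transcript is absent.

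Likeness of pattern was measured as the mean absolute difference, over the 12 arrays, between a receptor and another tested gene after each was centred on its own mean. For Fcgr2b the nearest genes were Borcs7 (0.18), the integrin alpha 4 gene Itga4 (0.19) and Ripor2 (0.23), where the median over all tested genes was 0.64. Itga4 had group means of 11.79 (wild type) and 10.84 (knockout) in spleen and of 11.04 and 9.97 in bone marrow, also highest in wild type spleen and lowest in knockout bone marrow. For Lair1 they were Insig1 (0.11), a regulator of sterol synthesis, the steroid enzyme gene Hsd11b1 (0.12) and Frat1 (0.13), against a median of 0.34. Of the other receptors, Fcgr3 was nearest to Cyb561d1, Dido1 and Atp1b2 (0.063 to 0.068) and Cd300a to Treml1, Prodh2 and Zfp775 (0.051 to 0.063). Nearest to Fcgr1 were Mob3a, Surf6 and Sash1 (0.047 to 0.054), and to Fcgr4 Tmem178, Afap1 and Galr2 (0.084 to 0.088). The medians over all tested genes were 0.20 for Fcgr3, 0.22 for Cd300a, 0.18 for Fcgr1 and 0.22 for Fcgr4. These receptors varied little, with mean absolute deviations of 0.14, 0.15, 0.10 and 0.15 against 0.62 for Fcgr2b. Their small distances are therefore not a closer likeness than those of Fcgr2b. Among the 6 receptors, Fcgr2b was nearest to Lair1 (0.40) and farthest from Cd300a (0.69).

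The signalling partners of the receptors were taken as lists. Of the receptor subunits and other Fc receptors 5 of 15 were tested. The shared gamma chain gene Fcer1g differed by 0.07 ± 0.09 in spleen and 0.08 ± 0.10 in bone marrow and did not pass. Cd247, the CD3 zeta chain that serves several NK receptors, fell by 0.69 ± 0.11 in spleen and by 0.99 ± 0.13 in bone marrow (adjusted p = 0.00264 and 5.33e-04, limma), and it alone of the 5 passed in either tissue. The Fc receptor-like gene Fcrl6 rose over both tissues together by 0.71 ± 0.19 (adjusted p = 0.0205, limma). The median of the 5 was 0.06 in spleen and -0.03 in bone marrow, where that of all genes tested was -0.01 in both.

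Among kinases, adaptors and effectors of ITAM receptors, 3 of 25 tested genes rose and 5 fell in knockout spleen, and 1 rose and 6 fell in knockout bone marrow. Over all genes 5.48% rose and 3.63% fell in spleen, and 3.92% and 4.73% in bone marrow. The medians of the 25 were -0.07 and -0.20, against -0.01 for all genes tested in each. Syk, the kinase that docks on the phosphorylated gamma chain, fell by 0.53 ± 0.13 in spleen and by 0.72 ± 0.14 in bone marrow (adjusted p = 0.0224 and 0.009, limma). Its relative Zap70 stood at 0.26 ± 0.14 and -0.13 ± 0.16 and did not pass. The Src family kinase Fyn fell by 0.46 ± 0.09 and by 0.88 ± 0.10, the ubiquitin ligase gene Cbl by 0.68 ± 0.12 and by 0.74 ± 0.13, and the protein kinase C theta gene Prkcq by 0.41 ± 0.11 and by 0.62 ± 0.12. Against these, the adaptor Sh3bp2 rose by 0.66 ± 0.14 and 0.65 ± 0.16, and the Src family kinase Fgr rose in spleen by 1.14 ± 0.17 but stood at 0.09 ± 0.19 in bone marrow, where it did not pass. The tissue difference in Fgr did not pass either (-1.05 ± 0.27, adjusted p = 0.310, limma). Tyrobp, the other ITAM adaptor of NK cells, stood at -0.02 ± 0.09 and -0.09 ± 0.10 and did not pass.

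Of the phosphatases and adaptors used by ITIM receptors, 1 of 11 tested genes rose and 1 fell in spleen, and 1 rose and 2 fell in bone marrow, with medians of -0.09 and -0.12 against -0.01 for all genes. With 9.11% and 8.65% of all genes called, these few calls are no result about the list. Ptpn6, which encodes SHP-1, rose by 1.19 ± 0.12 in spleen and 0.88 ± 0.13 in bone marrow (adjusted p = 8.44e-05 and 0.00184, limma). Ptpn11, for SHP-2, stood at 0.36 ± 0.13 and 0.15 ± 0.14 and did not pass. Inpp5d, for the SHIP-1 phosphatase that FcγRIIB recruits, stood at -0.38 ± 0.13 and -0.50 ± 0.15 and passed over both tissues together (-0.44 ± 0.09, adjusted p = 0.00569, limma). The SLAM adaptor gene Sh2d1a fell by 0.71 ± 0.18 and by 0.72 ± 0.19, and Dok2, an adaptor that restrains receptor signals, fell in bone marrow by 0.60 ± 0.14 and stood at -0.43 ± 0.13 in spleen.

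Other immunoglobulin-like receptors, listed with the CD300 family, had 16 of 34 members tested. Not all carry inhibitory motifs, and Cd160 and Pilrb1 are among those without one. In knockout spleen 3 rose and 1 fell, and in knockout bone marrow 2 rose and 1 fell, where 9.11% and 8.65% of all genes were called. The medians were -0.07 and 0.17, against -0.01 for all genes in each. The platelet and leukocyte adhesion receptor gene Pecam1 rose by 1.44 ± 0.13 in spleen and 1.68 ± 0.15 in bone marrow (adjusted p = 4.70e-05 and 4.04e-05, limma), the opposite direction to Fcgr2b. Lilrb4a, which belongs to a family of near-identical copies and is therefore uncertain on these arrays, rose in spleen by 1.12 ± 0.17 and stood at 0.48 ± 0.19 in bone marrow. Cd160 rose by 0.56 ± 0.15 and 0.64 ± 0.17. Cd300lf, an inhibitory relative of Cd300a, fell in bone marrow by 0.81 ± 0.19 and stood at -0.47 ± 0.17 in spleen, and Pilrb1, which also has a near copy and is uncertain for that reason, fell in spleen by 0.54 ± 0.14. Cd22, an inhibitory receptor gene of B cells, did not pass between genotypes and was lower in bone marrow than in spleen in wild type (-1.04 ± 0.19, adjusted p = 0.0108, limma), with a like difference in knockout that did not pass (-1.04 ± 0.21, adjusted p = 0.0796, limma).

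**Figure D3:**
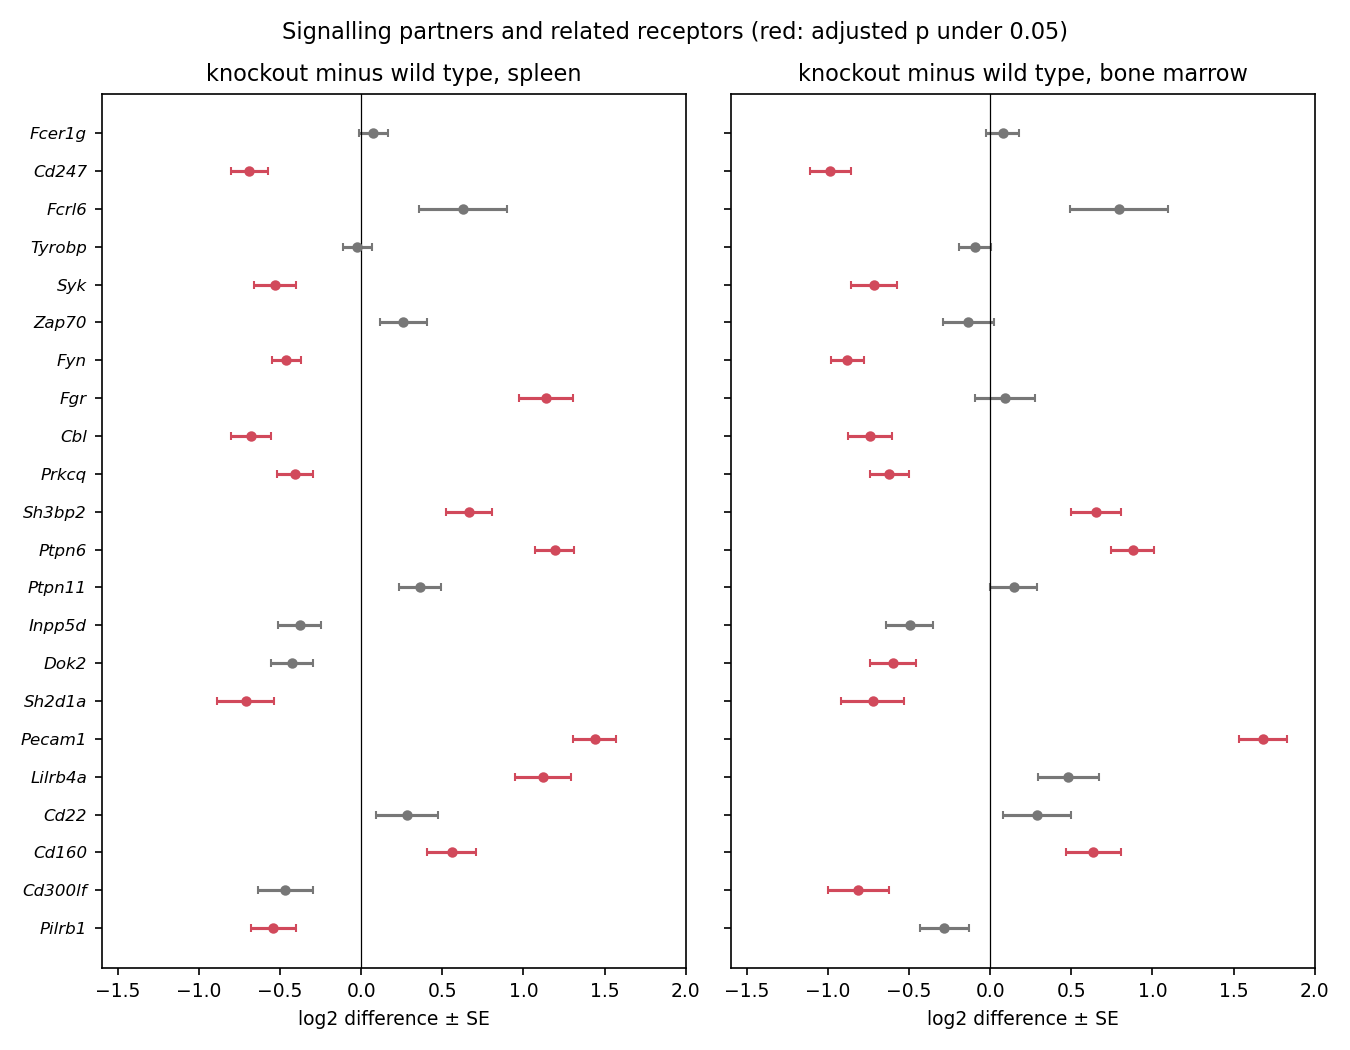
Log2 difference ± standard error between knockout and wild type NK cells in spleen (left) and bone marrow (right) for the named signalling partners and related receptors; red marks an adjusted p under 0.05 in limma. Cd247, Syk, Fyn, Cbl, Prkcq and Sh2d1a lie left of 0 in red in both tissues, Sh3bp2, Ptpn6, Pecam1 and Cd160 right of 0 in red in both, and Fcer1g and Tyrobp lie near 0.

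Of 12 listed genes for ligands of LAIR-1 and CD300a and for complement C1q (collagens, Sftpd, Colec12, C1q chains and Mfge8), 8 were tested and none passed in spleen, in bone marrow or over both in limma. In that comparison over both tissues their median was 0.06. The median of all genes tested was -0.01 there.

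Markers of other cells that carry these receptors were set beside them. The mean of 12 NK cell markers was 11.36 to 11.47 (wild type) and 11.52 to 11.62 (knockout) in spleen and 11.08 to 11.26 and 11.29 to 11.41 in bone marrow. Of these markers 1 of 12, the granzyme gene Gzmb, was higher in the knockout in each tissue and 4 over both, and 2 were lower in wild type bone marrow than in wild type spleen. Of 11 B and plasma cell markers 5 were tested and 0 passed between genotypes in spleen, bone marrow or both (limma), Ms4a1 and Cd79a lay below the test limit (4.25 and 4.82), and the mean of the list was 5.08 to 5.17 (wild type) and 5.13 to 5.14 (knockout) in spleen and 4.94 to 5.14 and 4.98 to 5.13 in bone marrow. Between wild type tissues 1 of the 5, Cd22, was lower in bone marrow. Blk (-0.01 ± 0.10), Cd79b (0.01 ± 0.13), Ighm (-0.11 ± 0.13) and Pax5 (-0.26 ± 0.17) did not pass there. Cd79a, below the limit, stood the other way, with means of 4.29 in wild type spleen and 5.27 in wild type bone marrow. The part of B cells in the receptor differences was not tested. Of 16 monocyte and macrophage markers 11 lay below the limit, among them Csf1r (5.16) and Adgre1 (4.10), and 2 of the 5 tested, Ccr2, which NK cells also express, and Ms4a6c, were lower in knockout spleen, where the list mean was 5.34 to 5.60 against 5.66 to 5.76 in wild type. In bone marrow 0 of the 5 passed in limma and the list mean was 5.69 to 5.87 in wild type and 5.64 to 5.80 in knockout. The largest of these differences was that of Lyz2, -1.17 ± 0.40 (adjusted p = 0.0964, limma). Between wild type tissues Lyz2 was higher in bone marrow (1.91 ± 0.36) and Ms4a6c lower (-0.77 ± 0.17), and both passed. The part of monocytes and macrophages in the receptor differences was not tested. Basophil and mast cell markers had 5 of 8 below the limit, Fcer1a and Mcpt8 among them. Of the 3 tested 1, the chymase gene Cma1, was lower in knockout spleen (-2.21 ± 0.23) and knockout bone marrow (-1.75 ± 0.26). Gata2 (-0.05 ± 0.12 and 0.12 ± 0.13) and Prss34 (0.30 ± 0.34 and -0.44 ± 0.38) did not pass in either. The mean of the list in wild type and knockout was 4.94 to 5.52 and 4.81 to 4.89 in bone marrow and 5.05 to 5.09 and 4.75 to 5.01 in spleen. The part of these cells in the receptor differences was not tested.

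Granulocyte, T cell and dendritic cell markers did move with the groups. The mean of 16 granulocyte markers was 6.53 to 6.80 in wild type bone marrow and 5.50 to 6.06 in knockout bone marrow, with 0 of 8 tested genes higher and 4 lower in the knockout, and 4.999 to 5.41 and 5.36 to 5.82 in wild type and knockout spleen, with 1 of 8 higher. Between tissues 7 of 8 tested granulocyte markers were higher in wild type bone marrow, and 0 of 8 passed in knockout (limma). In wild type 4.34% of all genes were higher in bone marrow. In knockout only 0.318% of all genes were called between tissues, so 0 of 8 there is no result about the list. The shares of all genes called between genotypes are those given above. With the granulocyte mean as a covariate, an alternative chosen after seeing the data, the bone marrow differences were -1.45 ± 0.22 for Lair1 (adjusted p = 0.0203) and -1.71 ± 0.31 for Fcgr2b (adjusted p = 0.0504), and the spleen difference of Fcgr2b was -0.54 ± 0.19 (adjusted p = 0.208, limma). In the same fit the wild type tissue difference of Fcgr2b was -0.25 ± 0.44 (adjusted p = 0.935, limma), with a standard error of 0.14 without the covariate. The knockout tissue differences were -1.42 ± 0.15 for Fcgr2b and -0.85 ± 0.11 for Lair1 (adjusted p = 0.00374 and 0.00969, limma). The granulocyte means of wild type bone marrow did not overlap with those of wild type spleen or knockout bone marrow. For those comparisons granulocyte level and group cannot be told apart by this fit. The mean of 8 T cell markers was 7.05 to 7.24 in wild type and 6.23 to 6.52 in knockout bone marrow, with 4 of 6 tested lower, and 6.499 to 6.61 and 6.24 to 6.52 in spleen, with 2 of 6 lower. Cd3e and Cd3g stood the other way in spleen (0.55 ± 0.22 and 0.44 ± 0.22) and did not pass there. Of 14 dendritic cell markers, Flt3, Xcr1, Clec9a, Cd209a and Siglech lay below the limit. The mean of the list was 6.39 to 6.56 in wild type and 6.84 to 6.86 in knockout bone marrow. In spleen it was 6.37 to 6.59 and 6.92 to 7.07. Of 9 tested, 2 were higher in bone marrow, Itgax and Tcf4. In spleen 6 were, these and Cd74, H2-Aa, H2-Ab1 and H2-Eb1. Irf8 stood at 0.04 ± 0.18 in spleen and -0.47 ± 0.20 in bone marrow, and Bst2 at -0.24 ± 0.17 and -0.03 ± 0.18. Neither passed, nor did Zbtb46 (-0.07 ± 0.11 and 0.25 ± 0.12). Markers of ILC1 and tissue-resident lymphocytes, 10 genes, stood at 6.02 to 6.64 in wild type and 8.24 to 8.66 in knockout arrays, with 7 of 9 tested higher in each tissue. Over both tissues 8 were higher and 1, Il7r, was lower (-0.78 ± 0.23, adjusted p = 0.0357, limma). Il7r stood at -0.50 ± 0.34 in spleen and -1.06 ± 0.37 in bone marrow and did not pass in either. The part of the T cell, dendritic and ILC1 lists in the receptor differences was not tested.

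**Figure D4:**
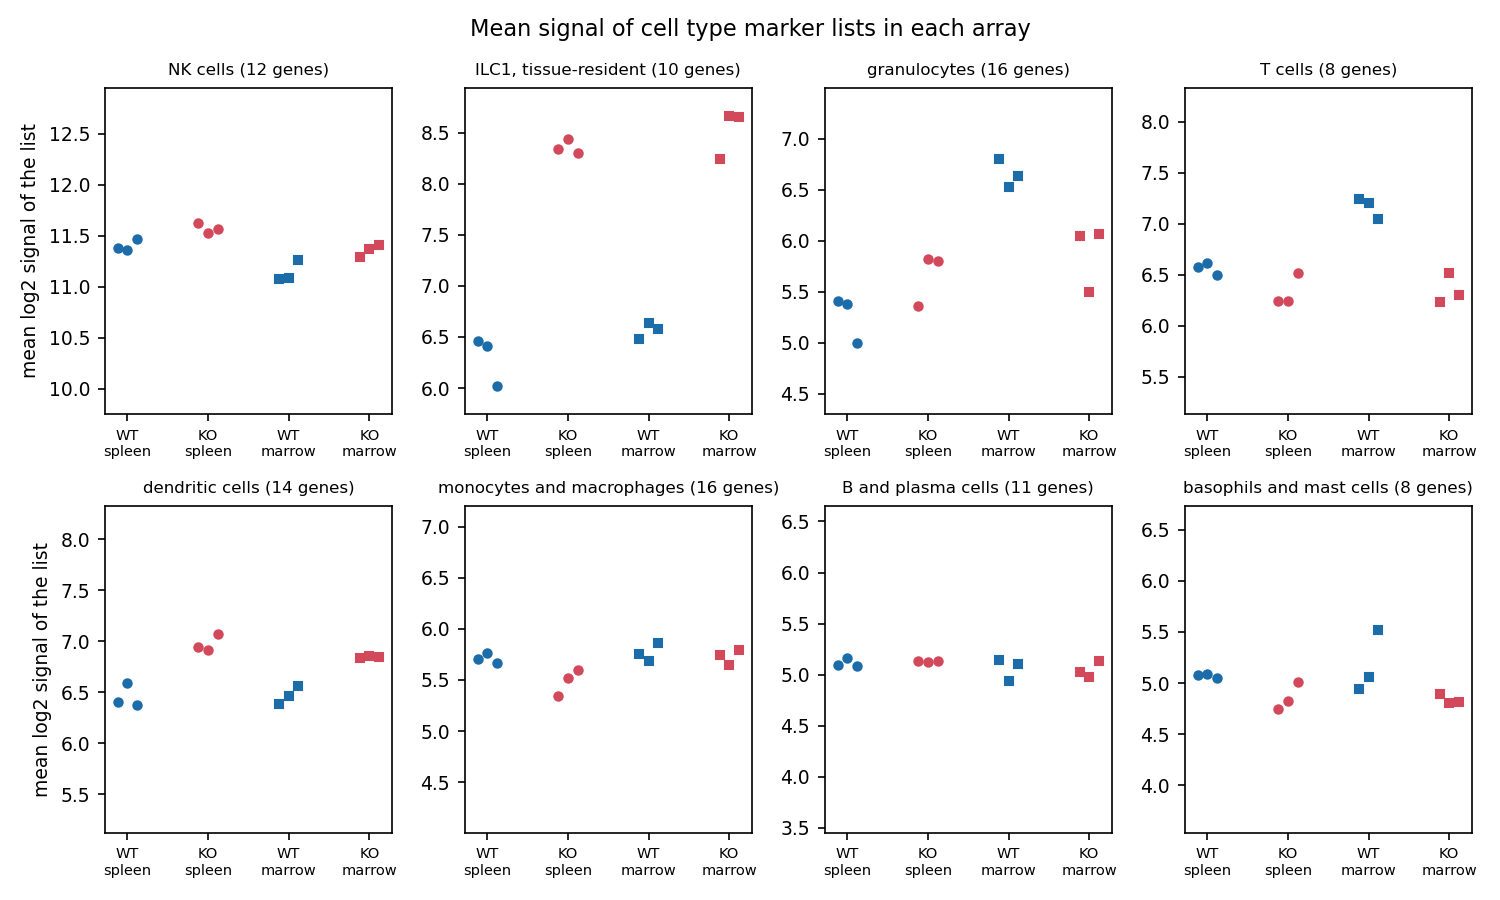
Mean log2 signal of 8 cell type marker lists in each of 12 arrays (circles spleen, squares bone marrow, blue wild type, red knockout), each panel spanning 3.2 log2 units. The granulocyte and T cell means are high in wild type bone marrow, the ILC1 mean is high in both knockout groups, the B cell mean lies near the same level in all groups, and 1 wild type bone marrow array is high for basophil markers.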

How the data were processed

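The authors deposited log2 signals per probe set for 12 Affymetrix arrays (35556 probe sets), made with Affymetrix Expression Console and RMA per the submitters' processing notes; RMA corrects background, normalizes quantiles and summarises probes, which compresses differences at low signal. RNA was amplified with a NuGEN Ovation kit, per the labels' protocols. Tool versions, annotation release and genome build: not given in the sources used here. By the platform annotation 21789 probe sets had 1 symbol, 1621 several and 12146 none. From the values, a mean per group and a run covariate were fitted with limma 3.58.1 (R 4.3.3; 7 residual and 4.74 prior degrees of freedom) over 11963 genes, with Benjamini-Hochberg adjustment and a threshold of 0.05, two-sided. Named beside the 6 receptors were, per list, the called genes with the largest differences (at most 6), 8 signalling genes whether called or not, and the 3 nearest genes per receptor. The members and lists were chosen with earlier results of these data known. The steps were tested on simulated data with 200 changed genes. Of changes sized 0.5 (log2), the fit found 1.05% in spleen and 0% in bone marrow. At size 1 it found 90.95% and 84.35%. The test of the difference between tissues in the genotype effect found 0% at 0.5, 45.1% at 1 and 87.75% at 1.5. At 0.5 the calls made in bone marrow and in that test were 100% false. Not passing does not by itself exclude a change near 0.5, nor one near 1 in that test. Whether arrays come from separate mice is not stated beyond the label of biological replicates, so p-values measure the spread between these arrays. Alternatives were no run covariate, tissues or genotypes fitted alone, a replicate block, other filters and scalings, averaged probe sets, another variance model and each array left out. Promoter and microRNA sequences came from RefSeq tables (GRCm38.p6), in which all 6 receptors were found.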

Additional observations from a re-analysis of the deposited data

How the results depend on the processing

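Of 4 tested receptors, the numbers called were 1 in spleen, 2 in bone marrow, 2 over both tissues, 0 for the difference between tissues in the genotype effect, 1 between wild type tissues and 2 between knockout tissues. Leaving out each array gave 0 to 1 in spleen (0 without wild type spleen 3), 2 in bone marrow and over both, 0 for the difference, 0 to 1 between wild type tissues and 0 to 2 between knockout tissues (0 without knockout spleen 3). Median centring gave 1 for the difference (Lair1, -1.16, adjusted p = 0.0371 in limma, over its 21 alternatives 0.0371 to 0.852), and fitting the knockout arrays alone gave 1 between knockout tissues. The granulocyte covariate, chosen after seeing the data, gave 0 in spleen, 1 in bone marrow and 0 between wild type tissues. In bone marrow and between wild type tissues the granulocyte means of the compared groups did not overlap, so granulocyte level and group cannot be told apart there. None of the called differences turned its sign under any alternative run; some of those not called did, among them Lair1 in spleen (-0.07 to 0.18). With the replicate number as a block the numbers called were 1, 2, 2, 0, 1 and 2 in the order above, so it changed no call. After each group's mean was subtracted from each tested gene, what remained in same-numbered arrays of different groups correlated at -0.02 to 0.24. Of 18 such pairs 6 were over 0.1, and since not every pair was, the numbers were not taken as pairs. As a hint from the data, not from the design, 9 of 12 arrays had by this measure their best match in other groups in an array of their own number. Over all genes the numbers called ranged from 351 to 1202 in spleen (1090 in the fit used), 50 to 1590 in bone marrow (1035), 0 to 977 between wild type tissues (643), 1 to 87 between knockout tissues (38) and 0 to 5 for the difference (1). The lowest of these were 351, 50 and 0 with the granulocyte covariate and 1 without knockout spleen 3. Leaving out single arrays also moved them by over 1.5 times. The number was 543 in spleen without wild type spleen 3, 650 there without knockout spleen 3, and 372 in bone marrow without wild type bone marrow 1. Between wild type tissues it was 323, 294 and 146 without wild type spleen 1, 2 and 3 in turn, and 83 and 395 without wild type bone marrow 1 and 2. Between knockout tissues it was 20 to 25 without one of 5 other arrays (spleen: knockout 1, wild type 3; bone marrow: knockout 3, wild type 1 and 2). Of calls between wild type tissues, 519 were higher and 124 lower in bone marrow, 419 and 179 after quantile normalization again and 901 and 76 after median centring. Averaging probe sets changes nothing for genes with 1 probe set.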

Other observations

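Of the receptor genes, 3 lie next to each other on chromosome 1 in the RefSeq order of protein-coding genes (Fcgr2b, Fcgr4, Fcgr3), and the next gene beyond Fcgr3 is Cfap126, a gene of cilia. Cfap126, chosen here by its position and after its values were seen, rose in knockout NK cells by 1.35 ± 0.21 in spleen and 1.34 ± 0.23 in bone marrow (adjusted p = 0.00162 and 0.00394 in limma), beside Fcgr3, which did not pass, and Fcgr2b, which fell. The gene after it, Sdhc, stood at 0.17 ± 0.17 and 0.10 ± 0.19 and did not pass. On the other side the nearest gene named on the array was Fcrla, which lay below the test limit with a mean of 5.23.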
